A study of Mus musculus and Homo sapiens with 60 samples.

Results

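After a Myc fusion protein had been activated for 4 h, some Myc peaks were called where no Myc, H3K27ac or H3K4me3 peak had been called before. These regions are described here. They were chosen by called peaks alone, as the peaks of the Myc list at 4 h of OHT that overlapped, by 1 bp or more, no Myc, H3K27ac or H3K4me3 peak of the 0 h cells. The rule kept 2421 regions, which made up 22.3% of the 10873 Myc peaks gained at 4 h and 8.74% of all 27693 Myc peaks called at 4 h. They are called unacetylated gained peaks below. An H3K4me1 peak of the 0 h cells lay on 1694 of them (H3K4me1-positive), and 727 had none (H3K4me1-negative). The comparison classes were the 5675 gained peaks on H3K27ac but off H3K4me3 at 0 h, the 2777 gained peaks on H3K4me3 at 0 h, and the 16820 peaks at 4 h that overlapped a Myc peak of the 0 h cells (retained peaks).

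Myc is a transcription factor that binds DNA as a dimer with Max, preferentially at E-box motifs, and in most cells it is found at promoters that are already active. H3K4me3 marks active promoters, H3K4me1 marks enhancers and the flanks of promoters, and H3K27ac marks active promoters and active enhancers. A region with H3K4me1 and no H3K27ac is commonly called a primed enhancer, and a region with no such mark is usually regarded as closed or inactive chromatin. When Myc is abundant it also occupies enhancers and weaker sites. RNA polymerase II (RNAPII) is the enzyme that transcribes protein-coding genes.

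The MycER cells were 3T9 fibroblasts from mouse embryos (day 13.5) of mixed strain and c-mycflox/flox genotype, infected in culture with MycER, a fusion of Myc to the hormone-binding domain of the oestrogen receptor that 4-hydroxytamoxifen (OHT) activates. They were given 400 nM OHT for 4 h, and the 0 h cells, which also carried MycER, were given ethanol. The Myc antibody N262 was used throughout, so these lists do not separate MycER from endogenous Myc. Serum cells were c-mycflox/flox 3T9 fibroblasts without MycER, starved of serum for 48 h (0 h) and then given 10% serum for 1 h or 2 h. For comparison with another cell type, Myc lists of Eµ-myc mice on C57BL/6 were used: 3 of lymph node tumour cells taken without further purification, 3 of spleen B cells of transgenic animals of 6 to 8 weeks, and 1 of spleen B cells of wild-type animals. The 24 RNAPII, H3K4me3, H3K4me1 and H3K27ac lists of these Eµ-myc tumour and spleen cells were also used. The Eµ-myc transgene drives Myc from an immunoglobulin enhancer in B cells. Each fibroblast condition had 1 library per antibody, so no fibroblast difference has a replicate check or a test, and the intervals given below are exact 95% binomial intervals that cover counting error only. The cell type labels could not be checked against marker genes, because no gene annotation on the mm9 build of these lists was used here.

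Depth is not known from peak lists. The Myc lists held 27693 peaks at 4 h and 18000 at 0 h, the H3K27ac lists 33702 and 34576, the H3K4me1 lists 74104 and 77144, the H3K4me3 lists 13407 and 13855, and the RNAPII lists 31941 and 27493. Peak numbers in the 0 h Myc list ran to 24182 with 6182 of them missing (25.6%), so a region counted here as gained could overlap a 0 h peak that is not in the list. In all, 1048 of the unacetylated gained peaks (43.3%) lay between 0 h Myc peaks of consecutive numbers with none missing, 693 of the H3K4me1-positive and 355 of the H3K4me1-negative ones. At the edge of the rule, the closest region kept lay 13 bp from a 0 h peak, with 22 regions closer than 100 bp, and the smallest overlap that kept a region out was 4 bp, with 17 under 100 bp.

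Most of these regions lay on H3K4me1 before activation, but less often than other Myc peaks. H3K4me1 at 0 h was called on 70.0% of the unacetylated gained peaks (interval 68.1 to 71.8), against 96.3% of all Myc peaks at 4 h. The share was 99.6% for gained peaks on H3K27ac, 98.7% for gained peaks on H3K4me3 and 98.6% for retained peaks. The rule kept out the peaks with H3K27ac or H3K4me3, and both marks usually lie within H3K4me1, so this difference is a description of what was selected. The median distance to the nearest 0 h peak was 12.7 kb for H3K27ac, 24.7 kb for Myc and 28.3 kb for H3K4me3. H3K4me1-negative peaks had a median distance of 6.09 kb to the nearest H3K4me1 peak. The regions were scattered, with a median distance of 164 kb to the nearest other member, and 186 (7.68%) had another within 10 kb. Every chromosome from 1 to 19 and X held some, the most on chromosome 2 (205), and 1 lay on an unplaced sequence. Chromosome 19 held 3.88% of them against 2.30% of the other gained peaks, and the X chromosome 1.20% against 2.50%.

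Their Myc scores were low. The deposited score is the value the authors' peak caller gave to a peak and grows with the negative log10 of its p-value. The lists held only scores above 80. The median score of the unacetylated gained peaks was 115.2, and 829 of them (34.2%) were under 100. Their median percentile within the 4 h Myc list was 15.9, against 22.0 for gained peaks on H3K27ac, 32.7 for gained peaks on H3K4me3 and 69.1 for retained peaks. The H3K4me1-positive peaks had a median percentile of 16.2 and the H3K4me1-negative peaks 14.8. Peaks were also narrow, with a median width of 1087.5 bp for the H3K4me1-positive and 1022 bp for the H3K4me1-negative ones, against 1247 bp for gained peaks on H3K27ac and 1839 bp for retained peaks. Since the absence of Myc at 0 h was part of the rule, these scores are given as a description.

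The exception was a small upper tail. Scores of 1000 or more were reached by 0.867% of the unacetylated gained peaks, against 20.6% of all 4 h Myc peaks. The share was 0.123% for gained peaks on H3K27ac and 0.468% for gained peaks on H3K4me3. Of the 41 gained Myc peaks with a score of 1000 or more, 21 were unacetylated gained peaks, 7 were on H3K27ac and 13 on H3K4me3. The 21 comprised 8 H3K4me1-positive and 13 H3K4me1-negative regions, and all 21 carried H3K27ac at 4 h. Over all 4 h Myc peaks, 88.1% carried H3K27ac at 4 h. Scores reached the top of the scale, at 3100 or more, in 7 H3K4me1-negative regions and in no H3K4me1-positive region, where the highest was 1606.07. In the whole 4 h Myc list 1242 peaks reached it.

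Acetylation appeared at 4 h on a minority of these regions, a smaller share than in the other classes of Myc peak that lacked it at 0 h. H3K27ac was called at 4 h on 437 of the 2421 unacetylated gained peaks (18.1%, 16.5 to 19.6), against 21.2% of all 4 h Myc peaks without it at 0 h (750 of 3539). Among the gained peaks on H3K4me3 that lacked H3K27ac at 0 h the share was 33.5%, and among such retained peaks it was 26.3%. The share was 22.1% (20.2 to 24.2) in the H3K4me1-positive peaks and 8.53% (6.60 to 10.8) in the H3K4me1-negative peaks, a difference of 13.6 points (10.6 to 16.4). At 0 h it was 0 in both by the rule. With equal numbers of highest-scoring peaks taken from the 4 h and 0 h lists of each antibody, the rule kept 435 regions. Of these, 42.3% had H3K27ac at 4 h. For H3K27ac that setting removed the lowest-scoring peaks at 0 h only, so some of the 435 could overlap a removed one. It also kept only the 18000 highest-scoring of the 27693 Myc peaks at 4 h. In the highest of 5 groups of Myc score among the 2421, the share with H3K27ac was 37.8%. The part of each in the 42.3% was not tested. In 426 of the 437 the acetylated region at 4 h was a new peak as a whole. In the other 11, all H3K4me1-positive, it overlapped an H3K27ac peak of the 0 h cells elsewhere along its length.

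**Figure D1:**
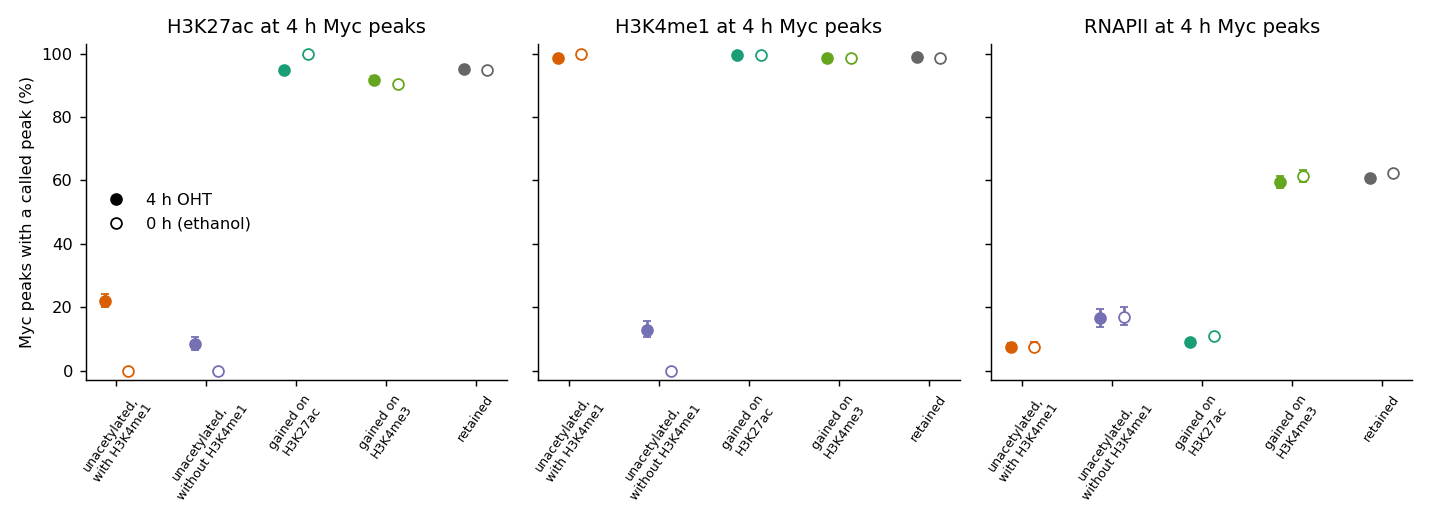
Percent of 4 h Myc peaks (y axis) that overlap a called H3K27ac, H3K4me1 or RNAPII peak, for 5 classes of Myc peak (x axis), at 4 h of OHT (filled) and at 0 h (open), with exact 95% binomial intervals. H3K27ac reaches 22.1% of the H3K4me1-positive and 8.53% of the H3K4me1-negative unacetylated peaks at 4 h, whereas RNAPII differs little between 4 h and 0 h in both. Points at 0% or 100% for a mark of the rule at 0 h are fixed by the rule.

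H3K4me1 regions that gained Myc were acetylated at 4 h more often than those without Myc. Of the H3K4me1 regions of the 0 h cells that were free of Myc, H3K27ac and H3K4me3, 1553 carried an unacetylated gained peak, and 355 of these had H3K27ac at 4 h (22.9%, 20.8 to 25.0). Of the 32192 such regions without Myc at 4 h, 1036 had it (3.22%). The regions with Myc were wider, with a median of 1628 bp against 1206.5 bp. In 4 groups of width from narrow to wide, set at the quartiles of these regions, the share was 15.4%, 24.1%, 21.1% and 24.6% with Myc, against 1.17%, 1.76%, 3.30% and 6.94% without. They also had higher H3K4me1 scores, with a median of 582.92 against 222.77, and the part of this in the difference was not tested. The difference of 19.6 points between regions with and without Myc became 42.4 points with equal numbers of highest-scoring peaks. That setting removed weak H3K27ac peaks at 0 h and none at 4 h, and it also removed the lowest-scoring Myc peaks at 4 h. The part of each was not tested.

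Losses of H3K27ac give the counterpart of these gains. Off H3K4me3, the gained Myc peaks had 436 regions with H3K27ac at 4 h only and 297 with it at 0 h only, a ratio of 1.47 gained per lost (1.26 to 1.71). Retained Myc peaks had 170 gained and 151 lost (1.13, 0.899 to 1.41). H3K4me1 regions without Myc had 1035 gained and 3471 lost (0.298, 0.278 to 0.320). Losses therefore outnumbered gains where Myc was not called, and gains outnumbered losses at the gained Myc peaks. The gained peaks were chosen by a Myc call at 4 h only, and the Myc-free regions from the 0 h H3K4me1 list. H3K27ac peaks also covered less at 4 h, 98.0 Mb against 113 Mb at 0 h. The part of the choice and of the coverage in this contrast was not tested. The ratio at gained Myc peaks was 7.28 with equal numbers of highest-scoring peaks. For H3K27ac that setting removed the lowest-scoring peaks at 0 h only, so a region with weak 0 h acetylation could count as gained. It also removed the lowest-scoring Myc peaks at 4 h, and the part of each was not tested.

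**Figure D2:**
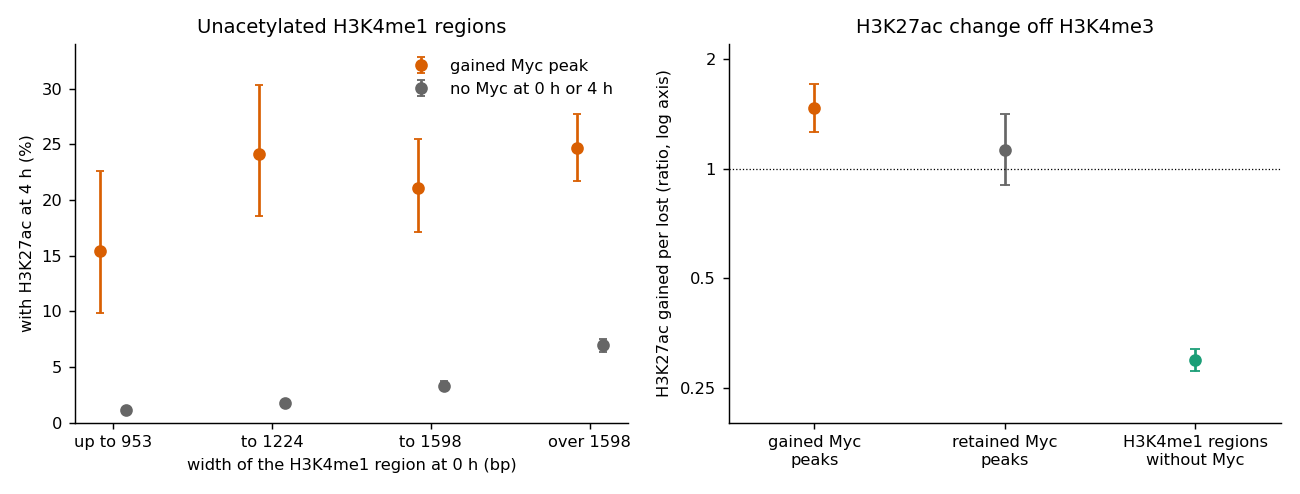
Left, percent of 0 h H3K4me1 regions free of H3K27ac, H3K4me3 and Myc that carried H3K27ac at 4 h (y axis) by width group in bp (x axis), with a gained Myc peak (orange) or without Myc (grey). Right, H3K27ac regions gained per region lost off H3K4me3 (y axis, log scale) at gained Myc peaks, retained Myc peaks and H3K4me1 regions without Myc, with exact 95% intervals. The shares with Myc lie between 15.4% and 24.6%, those without between 1.17% and 6.94%, and the ratio is above 1 at gained Myc peaks and below 1 without Myc.

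The share with H3K27ac was larger at higher Myc scores. In 5 equally large groups of Myc score from lowest to highest, 8.66%, 10.7%, 13.0%, 20.0% and 37.8% of the unacetylated gained peaks had H3K27ac at 4 h. For the H3K4me1-positive peaks the shares were 11.6%, 15.2%, 16.4%, 24.9% and 41.2%, and for the H3K4me1-negative peaks 2.03%, 1.86%, 5.37%, 8.45% and 28.3%. The H3K4me1-positive share was the higher one in each group. By distance to existing acetylation, the share in the H3K4me1-positive peaks was 23.6% within 2 kb of a 0 h H3K27ac peak, 21.7% at 2 to 10 kb, 22.5% at 10 to 50 kb and 20.8% farther away. In the H3K4me1-negative peaks it was 15.2% (8.10 to 25.0), 6.52% (3.70 to 10.5), 7.48% (4.75 to 11.1) and 10.5% (5.70 to 17.3) at the same distances, on 79 regions within 2 kb. The rank of the underlying H3K4me1 peak had a median percentile of 49.2 under peaks that gained H3K27ac and 49.6 under those that did not.

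**Figure D3:**
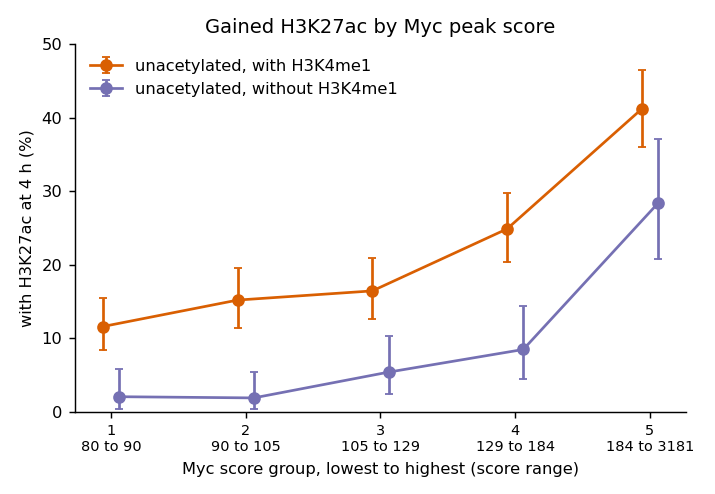
Percent of unacetylated gained Myc peaks with H3K27ac at 4 h (y axis) in 5 groups of Myc score, with the score range of each group on the x axis, for H3K4me1-positive (orange) and H3K4me1-negative (purple) regions, with exact 95% binomial intervals. The shares run from 11.6% to 41.2% in the H3K4me1-positive and from 2.03% to 28.3% in the H3K4me1-negative regions.

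Seen from the acetylation side, 2017 H3K27ac peaks of the 4 h list overlapped no H3K27ac peak of the 0 h list. An unacetylated gained Myc peak lay on 424 of them (21.0%), and any 4 h Myc peak on 750 (37.2%). Among these new peaks, split into 5 groups by H3K27ac score, the highest-scoring group held the most: 150 of 404 (37.1%) carried an unacetylated gained peak, against 58 of 403 (14.4%) in the lowest-scoring group. Of the 30 with the highest scores, 17 carried an unacetylated gained peak and 29 carried Myc at 4 h. The acetylated peaks under the gained Myc peaks were weak within the H3K27ac list as a whole, with a median percentile of 15.0.

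H3K4me1 changed little. It was still called at 4 h on 1670 of the 1694 H3K4me1-positive peaks and absent from 24 (1.42%), against 0.176% of all 4 h Myc peaks that had it at 0 h. Of the 727 H3K4me1-negative peaks, 94 had H3K4me1 at 4 h (12.9%, 10.6 to 15.6), against 14.6% of all 4 h Myc peaks without it at 0 h (150 of 1024). The 727 and their 94 gains are most of the 1024 and 150. Among the other peaks without H3K4me1 at 0 h, the share was 16.5% of 237 retained peaks. It was 17.1% of 35 gained peaks on H3K4me3 and 44% of 25 gained peaks on H3K27ac. H3K4me3, the promoter mark, was called at 4 h on 9 regions (0.372%), all of them H3K4me1-positive, against 0.613% of all 4 h Myc peaks without it at 0 h.

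RNAPII was called about as often at 4 h as at 0 h. It lay on 7.50% of the H3K4me1-positive peaks at 4 h and 7.67% at 0 h, and on 16.5% of the H3K4me1-negative peaks at 4 h and 17.1% at 0 h. Over all 4 h Myc peaks these shares were 45.6% at 4 h and 47.3% at 0 h. RNAPII was gained on 55 unacetylated gained peaks, 2.54% of the 2167 without it at 0 h, against 7.77% of all 4 h Myc peaks without it. It was lost from 62, or 24.4% of the 254 that had it, against 12.1% of all 4 h Myc peaks with it. Gained peaks on H3K27ac had 9.25% at 4 h and 11.0% at 0 h. They lost it from 44.1% of the 626 that had it and gained it on 3.47% of the 5049 without it. The RNAPII peaks covered 56.8 Mb at 4 h and 78.7 Mb at 0 h. Among the 437 regions that gained H3K27ac, 11 gained RNAPII, 11 lost it and 13 kept it, so the share with RNAPII was 5.49% at both times. The RNAPII gain over all unacetylated gained peaks, 2.27%, was 4.76% with peaks of at least the median score of each list and 1.4% with a 50% overlap. The median-score setting also removed weak 0 h peaks and kept mostly other regions.

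The combinations of marks at 4 h are given for the 2 H3K4me1 classes. H3K4me1 at 0 h defined these classes and was called at 4 h on 98.6% of the positive and 12.9% of the negative peaks. The H3K4me1 part of the combinations therefore follows mostly from the split. Over all 4 h Myc peaks, 96.7% had H3K4me1, 88.1% H3K27ac and 45.6% RNAPII at 4 h. Among the H3K4me1-positive peaks, 1193 (70.4%) had H3K4me1 alone, 354 (20.9%) had H3K4me1 with H3K27ac and 21 had both with RNAPII. Among the H3K4me1-negative peaks, 485 (66.7%) had none of the 3, 104 (14.3%) had RNAPII alone and 63 had H3K4me1 alone. H3K27ac alone was found on 42 H3K4me1-negative peaks, H3K27ac with H3K4me1 on 17, and all 3 on 1. The 62 H3K4me1-negative peaks with H3K27ac stood high in the Myc list, with a median percentile of 48.8, against 13.9 for the H3K4me1-negative peaks without H3K27ac. In the H3K4me1-positive class the medians were 27.0 with and 14.7 without H3K27ac.

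Single regions show these patterns. The H3K4me1-positive region with the highest Myc score was on chromosome 11 at 90278655 to 90280350 (mm9), with a score of 1606.07 and H3K27ac at 4 h, 60.7 kb from the nearest H3K27ac peak of the 0 h cells. The next, on chromosome 19 at 6267299 to 6268847 (score 1158.75), gained both H3K27ac and RNAPII and also carried Myc 2 h after serum. It was followed by chromosome 2 at 38315579 to 38317275 (1116.31), chromosome 2 at 151598523 to 151600164 (1112.13) and chromosome 19 at 36647973 to 36649230 (1089.06). All 5 had H3K27ac and H3K4me1 at 4 h, and only the chromosome 19 regions had serum Myc.

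The H3K4me1-negative region with the highest score was on chromosome 10 at 38858619 to 38860580, with 3181.2. A score of 3100 was tied among 6 further regions, and the first 4 in genome order were chromosome 2 at 120866503 to 120868807, chromosome 10 at 31547708 to 31549011, chromosome 11 at 5970333 to 5972829 and chromosome 11 at 6609572 to 6612267. All 5 of these had H3K27ac at 4 h, at percentiles of 42.9 to 73.7 within the H3K27ac list, and none had H3K4me1 or RNAPII at either time or Myc in a serum list. The first and the pair on chromosome 11 carried Myc in all 3 tumours, and the region at 6609572 did so in all 3 transgenic spleen libraries too.

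Gain of all 3 of H3K27ac, RNAPII and H3K4me1 was found in 1 H3K4me1-negative region, on chromosome 16 at 20701988 to 20702995 (score 560.74), which had Myc in all 3 tumours. Among H3K4me1-positive regions with H3K27ac and RNAPII gained, the highest scores after chromosome 19 at 6267299 were on chromosome 2 at 25697041 to 25698357 (803.6) and 60668212 to 60669444 (631.97), and both had Myc 2 h after serum. At the other end of the score range were chromosome 10 at 79731897 to 79732982 (80.07), chromosome 10 at 13394410 to 13395541 (80.1) and chromosome 14 at 73115706 to 73116587 (80.15), none of which had H3K27ac at 4 h. The first of these had RNAPII at both times, and the second had Myc 1 h and 2 h after serum.

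Endogenous Myc induced by serum reached a minority of these regions, most of them at 2 h. Of the unacetylated gained peaks, 24 (0.991%) carried Myc in starved cells, 60 (2.48%) at 1 h and 386 (15.9%, 14.5 to 17.5) at 2 h of serum. The shares over all 4 h Myc peaks were 19.8%, 27.8% and 51.2%. In gained peaks on H3K27ac they were 1.90%, 3.01% and 21.5%, and in retained peaks 31.5%, 43.6% and 70.9%. The serum lists held 5832, 8105 and 16384 peaks at these times, and the share was largest at 2 h in every class. At 2 h the share was 17.7% in the H3K4me1-positive and 11.8% in the H3K4me1-negative peaks. With equal numbers of highest-scoring peaks the share at 2 h was 25.7%. Of the 413 regions with Myc in any serum list, 335 had it at 2 h only, 42 at 1 h and 2 h, and 3 in all lists. Myc at 2 h only was found on 6092 of the 14875 such peaks over all 4 h Myc peaks and on 4173 of 12474 retained ones. It was found on 1056 of 1308 such gained peaks on H3K27ac and 528 of 680 on H3K4me3, so this pattern was common to the gained classes.

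The 3 regions with Myc at every serum time were on chromosome 13 at 43619817 to 43621063, chromosome 16 at 92277177 to 92278083 and chromosome 10 at 60674215 to 60675228. The chromosome 13 region had a score of 271.71 and gained H3K27ac. The chromosome 16 region had a score of 167.93 and kept H3K4me1 without acetylation. The chromosome 10 region had a score of 96.94, was H3K4me1-negative and had none of the marks at 4 h. Serum Myc at 2 h was found on 22.9% of the H3K4me1-positive peaks that gained H3K27ac (18.8 to 27.5), against 16.2% of those that did not. In the H3K4me1-negative class it was found on 4 of the 62 that gained H3K27ac (6.45%, 1.79 to 15.7), against 12.3% of those that did not. That interval includes 12.3%. The serum peaks on these regions were also low in their own list, with a median percentile of 25.8 at 2 h, against 60.0 for those on retained peaks.

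**Figure D4:**
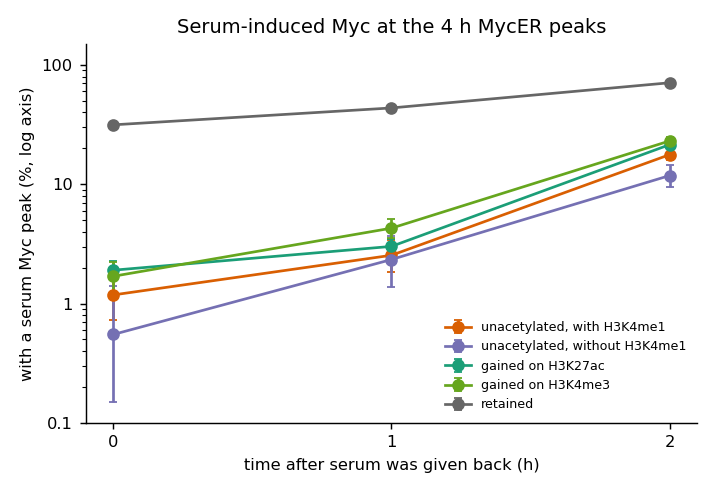
Percent of 4 h MycER Myc peaks that overlap a Myc peak of starved cells (0 h) or of cells 1 h or 2 h after serum (x axis, hours; y axis on a log scale), for the 5 classes, with exact 95% binomial intervals. At 2 h the H3K4me1-positive and H3K4me1-negative unacetylated peaks reach 17.7% and 11.8%, below gained peaks on H3K27ac at 21.5% and retained peaks at 70.9%.

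In B-cell tumours, the H3K4me1-negative regions carried Myc more often than the H3K4me1-positive ones. Myc was called in tumours 1, 2 and 3 on 44.0%, 37.3% and 40.9% of the H3K4me1-negative peaks, a mean of 40.7% ± 3.37 (SD, n = 3). On the H3K4me1-positive peaks it was called on 15.3%, 13.0% and 17.9%, a mean of 15.4% ± 2.42 (SD, n = 3). Within the tumours the difference was 25.3 ± 3.03 points (SD of the within-tumour differences, n = 3), higher in the H3K4me1-negative class in 3 of 3, and the ranges did not overlap. Over all 4 h Myc peaks the shares were 42.4%, 40.6% and 42.5%, so the H3K4me1-negative peaks lay near the background of Myc peaks and the H3K4me1-positive peaks below it. Gained peaks on H3K27ac were lower still, at 8.34% ± 1.48 (SD, n = 3), and gained peaks on H3K4me3 were at 63.8% ± 3.06 (SD, n = 3). With peaks of at least the median score of each list, which kept mostly other regions, the difference was 14.4 points. The labels do not say whether the tumours came from separate animals.

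The difference was present in each of the 5 groups of Myc score and in each tumour. In tumour 2, which had the lowest shares in both classes, Myc was called on 29.1% of H3K4me1-negative and 11.3% of H3K4me1-positive peaks in the lowest group, and on 45.7% and 15.7% in the highest. In transgenic spleen B cells Myc was called on 4.40%, 3.16% and 9.90% of the H3K4me1-negative peaks and on 2.83%, 1.83% and 5.14% of the H3K4me1-positive peaks. In wild-type spleen the share was 2.34% for the H3K4me1-negative and 1.36% for the H3K4me1-positive peaks. Over all 4 h Myc peaks it was 23.3%, 12.2% and 24.6% in transgenic and 15.1% in wild-type spleen, so in spleen both classes lay below the background of Myc peaks. The tumour lists were longer, at 29252, 27347 and 34142 peaks, against 12956, 5246 and 12985 in transgenic and 6978 in wild-type spleen.

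Myc was shared by all 3 tumours on 183 H3K4me1-negative peaks (25.2%) and 138 H3K4me1-positive peaks (8.15%), against 35.2% of all 4 h Myc peaks. Of the 183, 65 (35.5%) had no RNAPII, H3K4me3, H3K4me1 or H3K27ac peak in any tumour list, and 60 had none in any of the 24 Eµ-myc lists of these marks. Of the 138, 3 had no such peak in any tumour list. Regardless of tumour Myc, 56.4% of all H3K4me1-negative and 57.0% of all H3K4me1-positive peaks had none in any tumour list, so the regions with Myc in all 3 tumours were unmarked less often than their class in both cases. Tumour H3K27ac was found on 13.6% ± 3.65 of the H3K4me1-positive and 11.1% ± 3.25 of the H3K4me1-negative peaks (SD, n = 3 each), and within the tumours the difference was 2.59 ± 0.632 points (SD, n = 3), of 1 sign in 3 of 3. Over all 4 h Myc peaks tumour H3K27ac was found on 40.4%, 43.0% and 46.3%. Tumour RNAPII was found on 14.9% ± 3.70 of the H3K4me1-negative and 7.32% ± 2.53 of the H3K4me1-positive peaks (SD, n = 3 each), a within-tumour difference of 7.54 ± 1.18 points (SD, n = 3), of 1 sign in 3 of 3. Over all 4 h Myc peaks it was found on 30.1%, 34.5% and 36.0%, so both classes lay below the background for both marks. Of the 62 H3K4me1-negative regions that gained H3K27ac in fibroblasts, 19 had Myc in all 3 tumours, and of the 13 among them with scores of 1000 or more, 9 did. The share over all 4 h Myc peaks with such scores was not determined, so the 9 of 13 has no background to be read against.

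**Figure D5:**
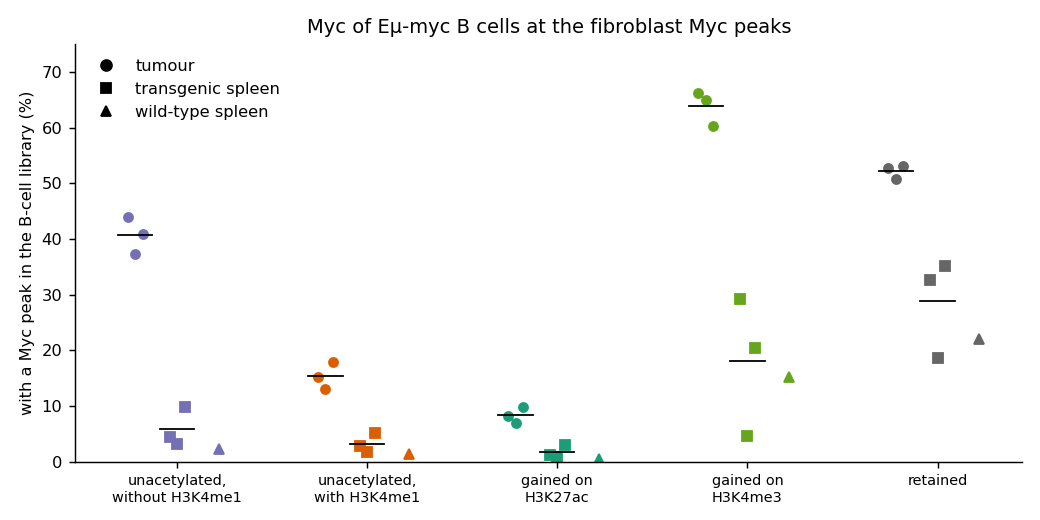
Percent of fibroblast 4 h Myc peaks of each class (x axis) that overlap a Myc peak of Eµ-myc tumours (circles), transgenic spleen B cells (squares) or wild-type spleen B cells (triangle), 1 point per library, with lines at the means. The H3K4me1-negative peaks lie at 37.3% to 44.0% in tumours and the H3K4me1-positive peaks at 13.0% to 17.9%, and both lie under 10% in spleen.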

How the data were processed

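Alignment used BWA 0.6.2, with SAMtools, and peak calling used MACS 1.4.1 on mm9, per the submitters' processing notes, which give no settings. A deposited list of peaks exists for each library, and none pools libraries. Its score is the authors' value per peak, between 80.01 and 3233.06 in the 4 h Myc list, and served here to order peaks inside a list or to set a minimum. Sonicated fragments averaged 250 bp, per the labels. What removed the missing peak numbers, which ran to 19.9% in the 4 h Myc list, is not stated in the labels or notes. In the Myc lists of tumours 1, 2 and 3, 25.4%, 29.8% and 21.6% of the numbers were missing, and in the serum lists none. A region counted here as without tumour Myc could therefore overlap a tumour peak that is not in the list.

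Samples were grouped by the labels' treatment and antibody. Peaks were shared at an overlap of 1 bp or more, gained when called at 4 h and not at 0 h, and lost in the opposite case. Gained Myc peaks were assigned by 0 h marks in the order H3K4me3, H3K27ac, H3K4me1. Percentiles are ranks among all scores of a list. Intervals for shares are exact (Clopper-Pearson, 95%) and treat regions as independent, which neighbouring regions are not. The members, classes and named regions were chosen with earlier results of these data known. The naming rule took the 5 highest scores in each H3K4me1 class, the 3 highest with all marks at 4 h in each, the 3 highest in all serum lists and the 3 lowest scores, with ties in genome order. Alternatives were a 50% overlap, peaks at or above each list's median score, equal numbers of highest-scoring peaks per list, Myc peaks set to 500 bp, no 0 h peak within 2000 bp, chromosomes 1 to 19, leaving out each tumour and, chosen after seeing the data, regions with no missing 0 h peak number beside them. The tumour, gain and loss, and H3K4me1 region comparisons were also added after seeing the data. Gene annotation, motifs and sequences on mm9, input libraries and the human lists were not used here.

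Python 3.11.15 with numpy 2.4.6, pandas 2.3.3, scipy 1.17.1 and matplotlib 3.10.9 was used. Overlap counting was tested on simulated data and gave the counts of bedtools 2.31.1 in 4 of 4 pairs of lists.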

Additional observations from a re-analysis of the deposited data

How the results depend on the processing

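The count of 2421 regions became 1093 with each list limited to its higher-scoring peaks (median and up), 435 with equal numbers of highest-scoring peaks and 1048 with no missing 0 h peak number beside the region, and the share on H3K4me1 at 0 h became 76.6%, 73.8% and 66.1% under these settings in that order. At or above the median score, H3K4me1 gained in H3K4me1-negative peaks was 18.4%, RNAPII gained 4.76%, serum Myc at 2 h 18.1%, the median Myc percentile 19.0, the tumour difference 14.4 points and H3K27ac gained per lost 2.11. With equal numbers, H3K27ac at 4 h was 42.3%, H3K4me1 gained 19.3%, serum Myc at 2 h 25.7%, the tumour difference 29.4 points, H3K27ac gained per lost 7.28, and the difference in H3K27ac between H3K4me1 regions with and without a gained Myc peak 42.4 points, against 19.6. With no missing number, RNAPII gained was 3.15%, serum Myc at 2 h 12.5%, the median percentile 14.3 and H3K27ac gained per lost 1.79. With a 50% overlap RNAPII gained was 1.4%. Both score settings removed weak 0 h peaks, so regions that overlap a 0 h peak of the full lists could enter. The median score of the 4 h Myc list was 319.22, and only the top score group of the 2421 (484 regions, from 184.38) could reach it. Most of the 1093 were therefore not among the 2421. Equal numbers shortened the 4 h list for Myc and RNAPII and the 0 h list for each histone mark. The cause of these shifts was not tested. The difference in H3K27ac between H3K4me1-positive and H3K4me1-negative peaks moved by less than its interval under all 7 settings, and no difference changed direction under any setting run. Leaving out each tumour gave tumour differences of 23.6 to 26.5 points. Of the 19 named regions, 8 remained with no missing number and 13 with the median score. The tumour differences between the classes were taken within each tumour library. No paired analysis was possible because, outside the tumours, each fibroblast condition has 1 library.

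Peak lists hold no depth, and a region without a called peak is not shown to be free of signal.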
